A study of Mus musculus with 6 samples.

Results

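The genes of prostaglandin synthesis, signalling and breakdown were followed in stem cells sorted from mouse skin squamous cell carcinomas that carried Sfrp1 or lacked it. Of 10 genes on the list (Ptgs1, Ptgs2, Ptges, Ptges2, Ptger1, Ptger2, Ptger3, Ptger4, Hpgd and Ptgis), 9 were measured among 30142 genes, each through 1 feature whose only platform symbol was that gene. Ptgs1, which encodes the constitutive cyclooxygenase, was not analysed here. The labels name 1 allele, Sfrp1-/- (written Sfrp1_KO), and set it against WT. Mice of both genotypes had received the mutagen DMBA on postnatal days 23, 25 and 27 and then, 2 times a week over 30 to 40 weeks, the tumour promoter TPA, a phorbol ester. Lineage-negative tumour cells that carried Epcam, α6 integrin and CD34 on their surface were sorted. RNA of 3 WT and 3 Sfrp1_KO samples was hybridised to 1 MTA 1.0 array each. Strain, sex, the deleted part of Sfrp1 and the animals behind each sample are not stated in the labels, so the replicates may be partly technical and p-values cover their spread alone. The comparison asks how expression in the sorted tumour cells differs when Sfrp1, a secreted antagonist of Wnt signalling, is absent.

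Prostaglandins are made from arachidonic acid that phospholipases free from membranes. Cyclooxygenases, encoded by Ptgs1 and by the inducible Ptgs2, turn it into an unstable intermediate, from which dedicated synthases make prostaglandin E (Ptges, Ptges2) or prostacyclin (Ptgis). Prostaglandin E acts through 4 receptors, EP1 to EP4 (Ptger1 to Ptger4), of which EP2 and EP4 raise cyclic AMP, and it is inactivated by the dehydrogenase Hpgd after uptake through the transporter Slco2a1. In mouse skin, TPA induces Ptgs2, and prostaglandin E is a known contributor to tumour promotion there.

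Values are deposited log2 signals, and a difference is Sfrp1_KO minus WT in those units. Since signals reached 19.93, more than a 16 bit scanner can record, a difference of 1 unit need not be a doubling of RNA. The background level of an array was taken as the highest of its 23 antigenomic background probe sets and lay between 4.82 and 5.10. Sfrp1 itself averaged 5.75 ± 0.30 on the WT and 5.12 ± 0.03 on the Sfrp1_KO arrays (SD, n = 3), a difference short of the threshold over all genes (limma adjusted p = 0.0969), and stood above background on 3 of 3 WT and 2 of 3 Sfrp1_KO arrays. Of the markers used in the sort, Epcam stood above background on 3 of 3 WT arrays and on 1 of 3 Sfrp1_KO arrays, whereas Itga6 and Cd34 stood above it on all 6. Epcam fell by 2.56 and Itga6 fell by 1.89 (limma adjusted p = 0.0455 and 0.0292), and the difference of Cd34 was 1.57 (0.0714, not called). At the RNA level the Sfrp1_KO samples thus went in part against their labelled Epcam gate.

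The sequences before the starts of Ptgs2 and Ptges are shown because these were the 2 listed genes that stood above background on all 6 arrays, the first with the largest genotype difference of the 9 and the second with the smallest. Both run 5′ to 3′ on the strand of the gene, from 250 bases before the RefSeq start to 30 after it. Ptgs2 lies on the plus strand at chr1:150099781-150100060 and Ptges on the minus strand at chr2:30903268-30903547 (RefSeq, GRCm38.p6). Capitals mark any match, on either strand, to TGANTCA for an AP-1 site, TGACG for the core of a cyclic AMP response element, CACGTG for an E-box, TATAAA for a TATA box or GGGCGG for a GC box, motifs chosen after the values were seen.
Ptgs2: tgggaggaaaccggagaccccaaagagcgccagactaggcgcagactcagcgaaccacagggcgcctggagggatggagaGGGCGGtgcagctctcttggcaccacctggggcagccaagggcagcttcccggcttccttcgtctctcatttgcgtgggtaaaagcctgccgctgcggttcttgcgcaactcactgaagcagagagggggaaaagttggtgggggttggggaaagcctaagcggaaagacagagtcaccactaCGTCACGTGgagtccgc
Ptges: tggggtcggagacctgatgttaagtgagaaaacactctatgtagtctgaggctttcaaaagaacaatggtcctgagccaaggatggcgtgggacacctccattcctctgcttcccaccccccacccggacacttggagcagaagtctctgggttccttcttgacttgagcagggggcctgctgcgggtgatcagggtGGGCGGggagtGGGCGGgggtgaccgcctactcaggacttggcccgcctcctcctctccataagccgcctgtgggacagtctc
In Ptgs2 a response element core on the other strand (bases 14 to 18, with the RefSeq start as base 1) and an E-box (17 to 22) overlapped by 2 bases. A GC box stood further upstream. Where transcription starts in these cells was not tested, so positions relate to the RefSeq start alone. Ptges held 2 GC boxes and none of the other 4 motifs. Of 32851 promoter windows of this length in the same table, 19.9% held the response element core, 6.79% the E-box, 34.7% the GC box, 13.1% the TATA box and 7.46% the AP-1 site. Promoters of 7 of the 9 measured genes were in the table, and Ptger1 and Ptgis were not matched. Among those 7, a response element core was found in 1, an E-box in 2, a TATA box in 1, a GC box in 5 and an AP-1 site in 0. A match describes these letters alone.

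Ptgs2, the inducible cyclooxygenase, had the brightest signal and the largest difference of the 9 genes. In WT it was at 8.96, 7.28 and 7.52 in replicates 1, 2 and 3, and in Sfrp1_KO at 10.10, 10.95 and 9.67. Every Sfrp1_KO array lay above every WT array, with a gap of 0.71 between the nearest, and WT replicate 1 lay closest to the Sfrp1_KO arrays. The means were 7.92 ± 0.91 and 10.24 ± 0.65 (SD, n = 3). The difference of 2.32 (SE 0.51, 95% CI 1.09 to 3.55) ranked 201st of 30142 genes by size but did not pass the test over all genes (limma adjusted p = 0.0777). By exact permutation of the arrays (two-sided) p was 0.1, which is the smallest value possible with 3 arrays in each genotype. Without WT replicate 1 the difference was 2.84 and passed (limma adjusted p = 0.0285). It also passed with dim genes left out (0.0471), after quantile normalization once more (0.0304) and with array weights (0.0281). Under the other 10 of 14 alternatives it did not pass, among them each other array left out (0.110 to 0.241). Limma adjusted p-values over the 14 alternatives ran from 0.0281 to 0.290. Ptgs2os, a noncoding gene on the opposite strand beside Ptgs2 that was looked up after the values were seen, lay under background on all 6 arrays (4.01 ± 0.11 and 4.14 ± 0.04; SD, n = 3).

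**Figure D1:**
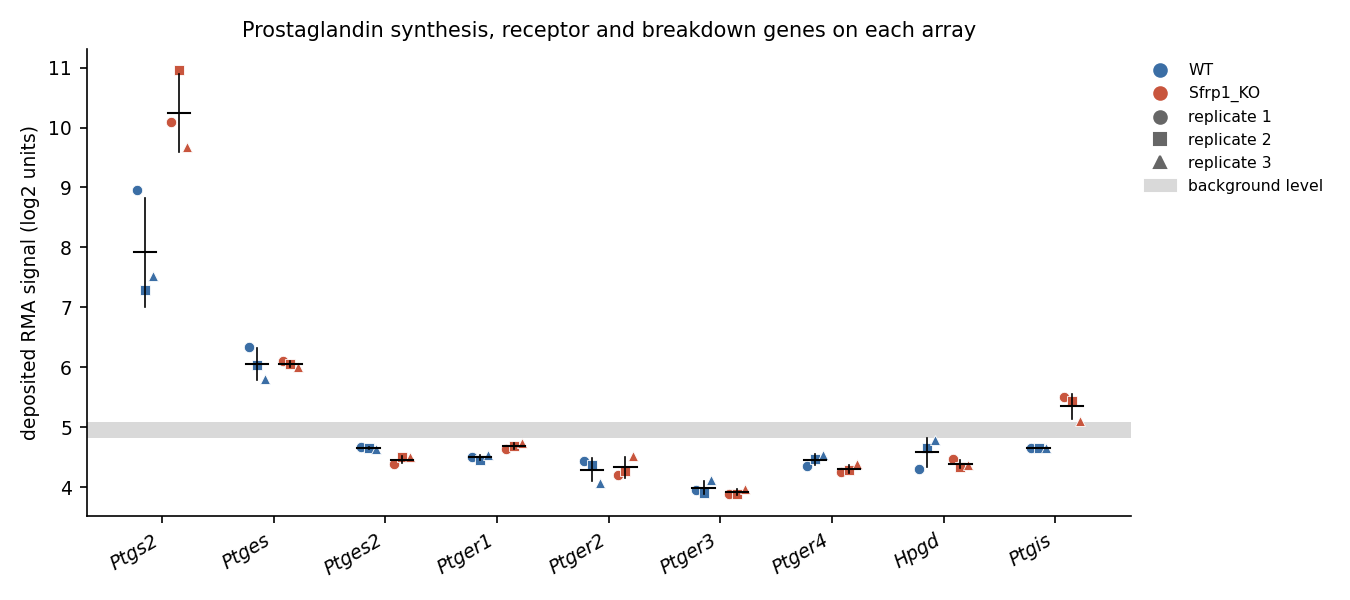
Deposited log2 signal of the 9 measured genes (vertical axis, log2 units) on each of 3 WT and 3 Sfrp1_KO arrays; marker shapes give the replicate, horizontal bars the mean, vertical bars 1 SD, and the grey band the range of the background level. Ptgs2 and Ptges stand above the band on all arrays, Ptgis crosses it in Sfrp1_KO, and the other 6 genes lie under it in both genotypes.

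Prostaglandin E synthase is encoded by more than 1 gene. Ptges, the membrane-bound form that is coupled to Ptgs2, was at 6.33, 6.04 and 5.81 in WT and at 6.11, 6.05 and 6.01 in Sfrp1_KO. The genotypes overlapped, and the Sfrp1_KO arrays all fell inside the range of the WT arrays. The difference was -0.0037 (SE 0.14, 95% CI -0.34 to 0.33, limma adjusted p = 0.997). Ptges2, another prostaglandin E synthase, was not above background on any array (4.65 ± 0.02 and 4.46 ± 0.06; SD, n = 3). Its Sfrp1_KO values lay below its WT values on every array, but both lay in a range where no level is read.

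Ptgis, which encodes prostacyclin synthase, was the 1 gene of the 9 that passed the test. It was at 4.65, 4.65 and 4.66 on the WT arrays, all under background, and at 5.50, 5.44 and 5.11 on the Sfrp1_KO arrays, all above it. The genotypes were apart by 0.45 at the nearest arrays, and Sfrp1_KO replicate 3 was the lowest of its group. The means were 4.66 ± 0.004 and 5.35 ± 0.21 (SD, n = 3). Since WT gives only an upper bound, the difference of the Ptgis means is given as at least 0.39. That is the Sfrp1_KO mean minus the mean background level of the WT arrays, and it leaves out the spread of the arrays. Sfrp1_KO replicate 3, at 5.11, lay close to its own background level of 5.04. The limma fit on the measured values gave 0.69 (SE 0.12, adjusted p = 0.0323). That call was lost without WT replicate 1, 2 or 3 (limma adjusted p = 0.0819, 0.0900 and 0.0983) and without Sfrp1_KO replicate 1 or 2 (0.118 and 0.142), and over 14 alternatives the adjusted p ran from 0.0144 to 0.149.

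**Figure D2:**
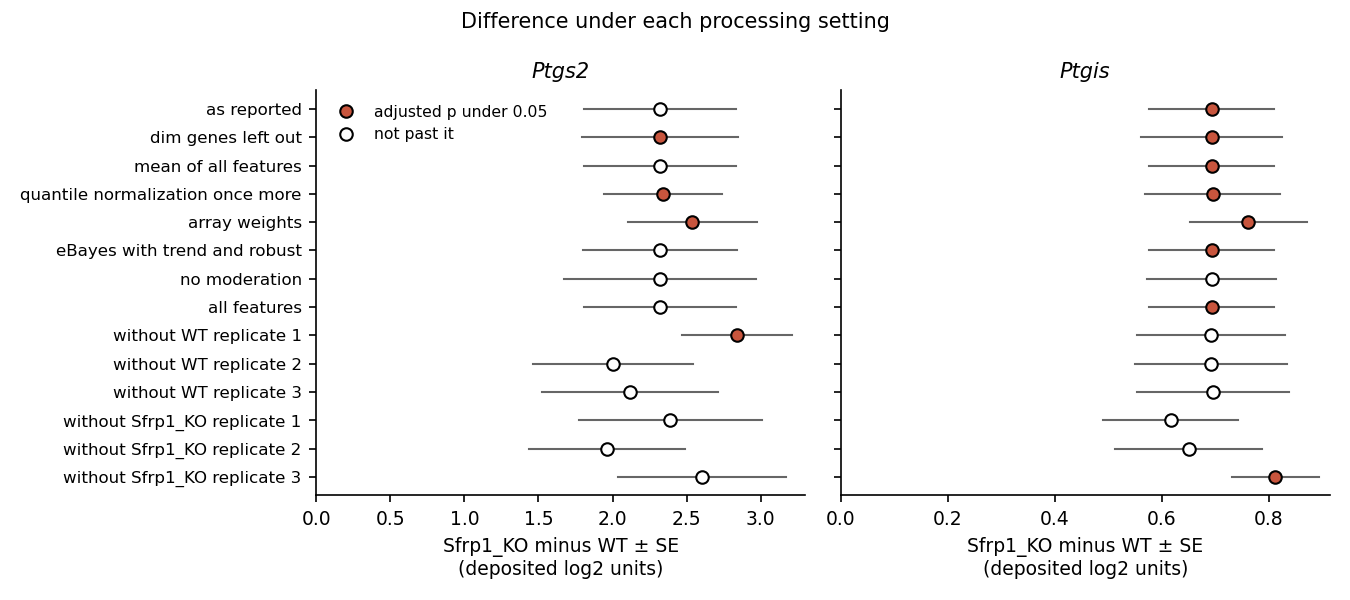
Difference between Sfrp1_KO and WT for Ptgs2 and Ptgis (horizontal axes, deposited log2 units, bars ± SE) under the reported fit and 13 of the 14 alternatives (the replicate block is not drawn); filled points have a limma adjusted p under 0.05. Ptgs2 stays between 1.96 and 2.84 and Ptgis between 0.62 and 0.81, while the side of the threshold changes with the setting for both.

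None of the 4 prostaglandin E receptor genes stood above background on any of the 6 arrays, so their differences are not read as changes. Ptger1, whose receptor signals through calcium, was at 4.50, 4.46 and 4.55 in WT and 4.63, 4.69 and 4.74 in Sfrp1_KO. Its genotypes did not overlap, with a gap of 0.09, and it did not pass (limma adjusted p = 0.340). Ptger2, encoding EP2, was at 4.44, 4.37 and 4.07 in WT and 4.197, 4.27 and 4.53 in Sfrp1_KO. Ptger3, whose receptor lowers cyclic AMP, was at 3.96, 3.90 and 4.12 against 3.89, 3.88 and 3.97. Ptger4, encoding EP4, was at 4.36, 4.47 and 4.54 against 4.26, 4.29 and 4.39. These 3 receptor genes overlapped between genotypes, and none passed (limma adjusted p = 0.970, 0.823 and 0.543).

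Hpgd, the dehydrogenase that inactivates prostaglandin E, was likewise under background on all arrays. It was at 4.31, 4.65 and 4.78 in WT and 4.47, 4.34 and 4.36 in Sfrp1_KO, and the genotypes overlapped (limma adjusted p = 0.652). With a signal at this level, a fall of Hpgd was not detectable.

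Of the 9 measured genes 1 was called (limma, adjusted p under 0.05), where 3.28% of all 30142 genes were. It was higher, as were 1.83% of all genes, and none was lower, as were 1.45%. At an unadjusted p under 0.05, limma gave 3 higher (Ptgs2, Ptger1 and Ptgis) and 1 lower (Ptges2), beside 6.84% and 7.54% of all genes, and no alternative called a member lower. The arrays of the genotypes did not overlap in 4 of the 9, beside 19.9% of all genes: Sfrp1_KO was above WT in 3 (9.1% of all genes) and below it in 1 (10.8%). Of those 4, Ptges2 and Ptger1 lay under background throughout. The median difference was -0.0037 over the 9 genes and -0.014 over all genes.

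**Figure D3:**
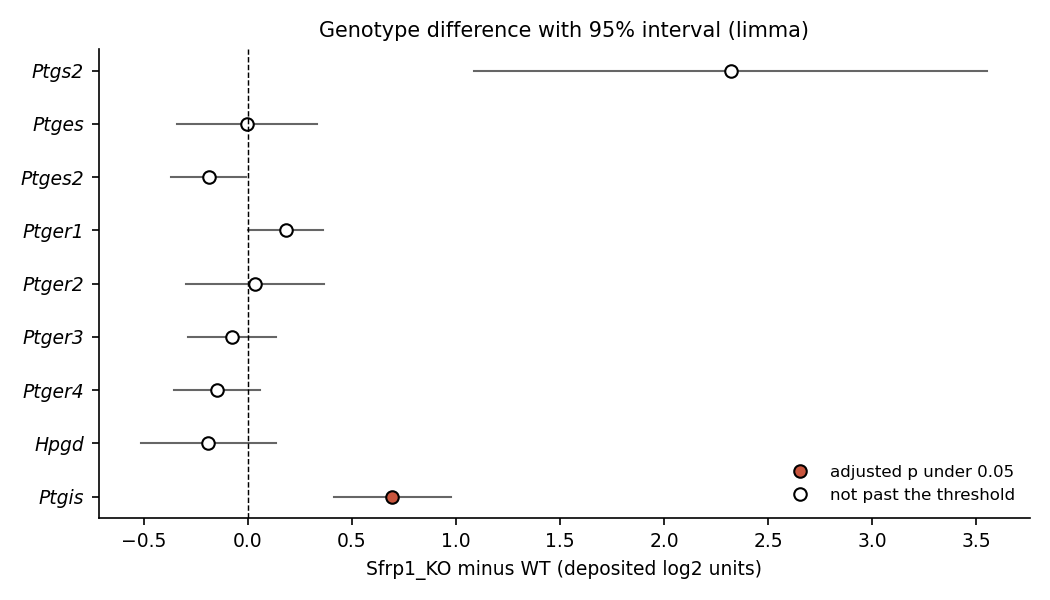
Sfrp1_KO minus WT (horizontal axis, deposited log2 units) for the 9 measured genes, with 95% intervals of the limma fit; the filled point passed the adjusted threshold. The interval of Ptgs2, from 1.09 to 3.55, is the widest, and those of Ptges, Ptger2, Ptger3, Ptger4 and Hpgd include 0.

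Other genes of the eicosanoid pathways and of the cyclic AMP relay were read from 6 lists with 77 entries, of which 71 were measured. Of these, 5 were called higher (limma), beside 1.83% of all genes, and 3 lower, beside 1.45%. Of the 5 called higher, 3 came from the cyclic AMP list, which is not particular to eicosanoids. Of the 3 called lower, Ltb4r1 lay under background throughout. Upstream, of 18 genes that free fatty acids from lipids 1 rose, Pla2g7, and the list median was 0.0066. Pla2g7 encodes a secreted enzyme that degrades platelet-activating factor and oxidised phospholipids, rather than one that supplies the cyclooxygenases. It was at 5.48, 6.36 and 4.94 in WT and 8.08, 8.49 and 8.195 in Sfrp1_KO, a rise of 2.66 (SE 0.35, limma adjusted p = 0.0148). Pla2g4a, the cytosolic phospholipase that supplies arachidonic acid, was above background on all arrays and did not pass (6.05 ± 0.07 and 6.11 ± 0.17; SD, n = 3; limma adjusted p = 0.917). The 2 list members with the smallest p after Pla2g7 were Pla2g2f and Pla2g4e (limma adjusted p = 0.246 and 0.258).

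Of 4 measured genes that carry or break down prostaglandins 2 fell, beside 1.45% of all genes called lower, and none rose. The list median was -0.52. Slco2a1, the prostaglandin transporter, was at 7.24, 7.85 and 6.61 in WT and 4.97, 4.98 and 5.10 in Sfrp1_KO, where 1 of 3 arrays was above background. It fell by 2.22 (SE 0.29, limma adjusted p = 0.0153), and its nearest arrays were 1.51 apart. Ptgr1, a reductase that inactivates prostaglandins and leukotriene B, fell from 5.65, 5.71 and 6.02 to 4.87, 5.06 and 4.91, all under background. The difference of its means is given as at least 0.72, which leaves out the spread of the arrays (limma adjusted p = 0.0197 for the measured difference). Ptgr2, a related reductase, and the exporter gene Abcc4 did not pass (limma adjusted p = 0.713 and 0.434), and Abcc4 lay under background on all arrays. The call of Slco2a1 was lost without Sfrp1_KO replicate 1 or 2 (limma adjusted p = 0.0665 and 0.0811; 0.00783 to 0.138 over all alternatives), as was that of Pla2g7 (0.0565 and 0.0794; 0.00676 to 0.138), and that of Ptgr1 without any 1 Sfrp1_KO array (0.0653 to 0.0864; 0.0115 to 0.125 over all alternatives).

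Among synthases of other prostanoids, 0 of 8 passed in either direction (limma), and the median was -0.07. At an unadjusted p under 0.05 limma gave 2, both lower, beside 7.54% of all genes lower. Those were Cbr1, a carbonyl reductase (5.26 ± 0.05 and 4.98 ± 0.05; SD, n = 3; limma adjusted p = 0.128), and Prxl2b, a prostaglandin F synthase (5.21 ± 0.08 and 4.996 ± 0.05; limma adjusted p = 0.290). Both stood above background on 3 of 3 WT arrays and on no Sfrp1_KO array, so their Sfrp1_KO means are upper bounds only. Of 5 receptors for other prostanoids 1 was called higher, beside 1.83% of all genes, and this was Ptgfr, the receptor of prostaglandin F. It was under background on 3 of 3 WT arrays (4.397, 4.35 and 4.65) and on 2 of 3 Sfrp1_KO arrays (5.001, 5.03 and 5.24). No size is therefore given (limma adjusted p = 0.0442 for the measured difference). Without any 1 array other than WT replicate 3 that call was lost (limma adjusted p = 0.111 to 0.145; 0.0262 to 0.171 over all alternatives). Ptgdr, a receptor of prostaglandin D, had the next smallest p (limma adjusted p = 0.751), and the prostacyclin receptor gene Ptgir was under background on all arrays (3.78 ± 0.12 and 3.76 ± 0.13; SD, n = 3). The receptor list had a median of -0.02.

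Of 13 lipoxygenase and leukotriene genes 1 was called lower, beside 1.45% of all genes, and the median was -0.13. At an unadjusted p under 0.05 limma gave 4, all lower, beside 7.54% of all genes. The called gene, Ltb4r1, the leukotriene B receptor, lay under background on all 6 arrays (4.77 ± 0.13 and 4.11 ± 0.12, SD, n = 3), so no size is given. Its adjusted p of 0.0283 (limma) rose to between 0.0528 and 0.115 when any 1 array was left out and ran from 0.0166 to 0.132 over all alternatives. The epidermal lipoxygenase gene Alox12b was at 4.38, 4.52 and 5.38 in WT and 3.99, 4.03 and 3.89 in Sfrp1_KO (limma adjusted p = 0.216). It stood above background on WT replicate 3 alone. Alox12 lay under background on all 6 arrays (limma adjusted p = 0.234).

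Genes that relay, regulate or end the cyclic AMP signal of receptors such as EP2 and EP4 included 3 that rose among 23 measured. None was called lower, and 1.83% of all genes were called higher. The list median was -0.0014. At an unadjusted p under 0.05 limma gave 6 higher and 0 lower, beside 6.84% and 7.54% of all genes. Of the 6, Adcy6 and Pde4a were not called and lay under background on all arrays. Adcy7 was not called and stood above it on all arrays. Prkar2b, a regulatory subunit of protein kinase A, rose from 5.17, 5.24 and 5.21 to 6.18, 6.30 and 6.21, by 1.02 (SE 0.07, limma adjusted p = 0.00263), and passed under all 14 alternatives (0.00146 to 0.0335). Prkacb, a catalytic subunit of the same kinase, rose from 5.47, 5.81 and 5.34 to 6.71, 6.88 and 6.69, by 1.22 (SE 0.14, limma adjusted p = 0.00940). Pde3b, a phosphodiesterase that degrades cyclic AMP, rose from 6.61, 6.33 and 5.73 to 7.90, 8.91 and 8.31, by 2.15 (SE 0.32, limma adjusted p = 0.0213). In each of the 3 the genotypes did not overlap. Prkacb was not called without Sfrp1_KO replicate 2 (limma adjusted p = 0.0530; 0.00655 to 0.101 over all alternatives). Pde3b was not called without WT replicate 2 or 3 or Sfrp1_KO replicate 2 or 3 (0.0537 to 0.0717; 0.0131 to 0.160 over all alternatives). Prkaca, the other catalytic subunit, and Gnas, the G protein that couples receptors to adenylyl cyclase, did not pass (limma adjusted p = 0.895 and 0.797).

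**Figure D4:**
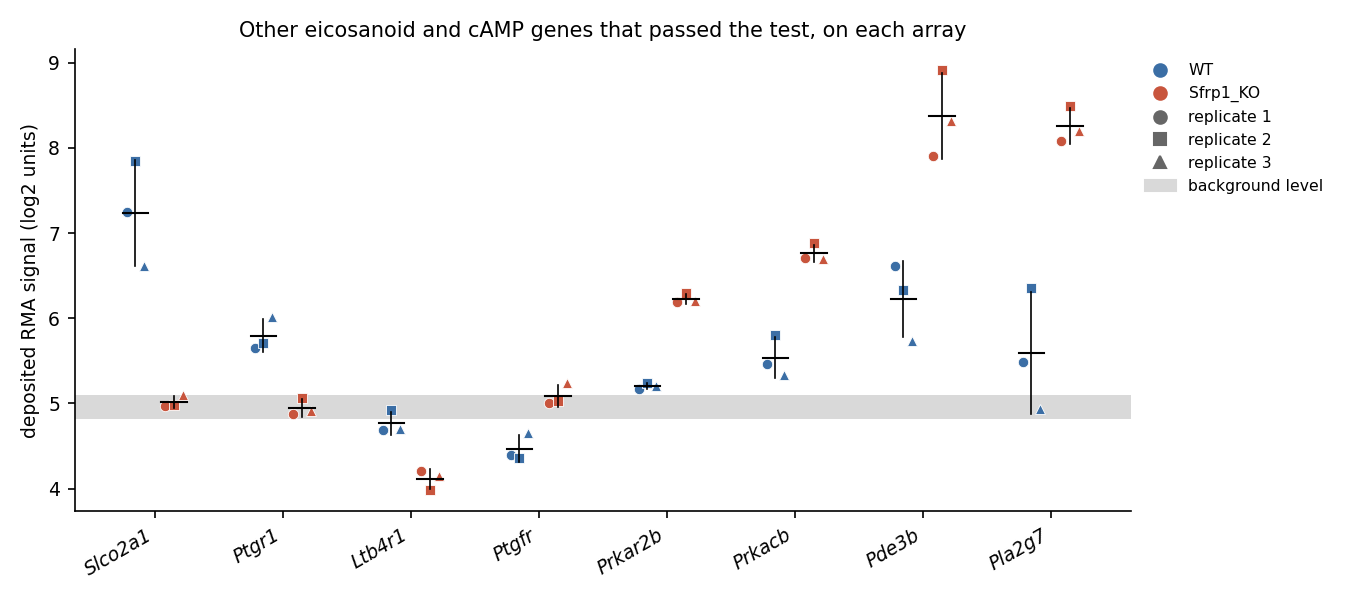
Deposited log2 signal (vertical axis, log2 units) on each array for the 8 genes of the wider eicosanoid and cyclic AMP lists that passed the limma test, ordered by difference; bars give the mean and 1 SD and the grey band the range of the background level. Slco2a1 and Ptgr1 drop to the band in Sfrp1_KO, Ltb4r1 lies under the background level of its array in both genotypes, and Prkar2b, Prkacb, Pde3b and Pla2g7 stand above it in Sfrp1_KO.

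Cell type markers moved with the same genotypes. In a bulk sample, fewer cells of a type and less RNA per cell cannot be told apart. Of 10 keratinocyte markers 8 fell, beside 1.45% of all genes called lower. All 10 were lower on every Sfrp1_KO array than on every WT array, beside 10.8% of all genes. Their mean level was 9.85 to 10.39 in WT and 5.83 to 5.93 in Sfrp1_KO. Of 9 fibroblast markers 2 rose, Pdgfrb and Thy1 (limma), beside 1.83% of all genes called higher. Pdgfrb was at 5.11, 4.80 and 5.25 in WT and 8.91, 9.47 and 7.93 in Sfrp1_KO (limma adjusted p = 0.00696). Thy1 averaged 5.55 ± 0.06 in WT and 6.44 ± 0.25 in Sfrp1_KO (SD, n = 3, limma adjusted p = 0.0237). The median difference of the fibroblast list was 0.75. At an unadjusted p under 0.05 limma gave 3 higher and 1 lower, beside 6.84% and 7.54% of all genes. The mean levels of the list were 5.70 to 7.05 in WT and 6.44 to 7.07 in Sfrp1_KO and overlapped. The 1 lower was Postn, a matrix protein gene, at 8.27, 8.74 and 11.71 in WT and 6.02, 6.46 and 6.20 in Sfrp1_KO (limma adjusted p = 0.117). Of 11 macrophage and leukocyte markers none passed (limma). At an unadjusted p under 0.05 limma gave 7, all higher in Sfrp1_KO, beside 6.84% of all genes. Of these, only Lyz2 stood above background on all Sfrp1_KO arrays. Csf1r lay under it on all 6 arrays. C1qa, C1qb, C1qc, Laptm5 and Tyrobp lay under it on all WT arrays and on at least 1 Sfrp1_KO array. The mean over the whole list was 4.48 to 4.60 in WT and 4.79 to 5.48 in Sfrp1_KO. Lyz2, a macrophage gene, was at 7.94, 6.84 and 5.96 on Sfrp1_KO arrays 1, 2 and 3, whereas Ptprc, the pan-leukocyte antigen gene, was under background on all 6 arrays. All 9 mast cell markers lay under background on all arrays, and so did 6 of 7 neutrophil markers and 5 of 6 melanocyte markers.

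Prostacyclin synthase is known from endothelium and vascular smooth muscle, whose markers are therefore given beside Ptgis. Of 8 endothelial markers none passed (limma). Only Cdh5 had an unadjusted p under 0.05 (limma), as did 14.4% of all genes. The mean level of the list was 4.31 to 4.82 in WT and 4.47 to 4.69 in Sfrp1_KO. Cdh5, the cadherin of endothelial junctions, was at 7.15, 6.69 and 4.88 on Sfrp1_KO arrays 1, 2 and 3 and at 4.22, 4.36 and 5.16 in WT. Its genotypes overlapped. Of the other 7 markers, Pecam1 and Kdr stood above background on WT replicate 3 alone, and Tie1, Tek, Emcn, Cldn5 and Vwf on none. The differences of these 7 are therefore not read as changes. Of 8 smooth muscle and pericyte markers none passed (limma). At an unadjusted p under 0.05 limma gave 3, all lower, beside 7.54% of all genes. Of these, Mcam stood above background on all 6 arrays, and Tagln and Notch3 on 1 of 3 WT arrays and no Sfrp1_KO array. In the whole list 4 of 8 markers lay under background on all arrays. Pdgfrb, which rose, was read with the fibroblast markers and is not in this list. The list had mean levels of 5.13 to 5.30 in WT and 4.76 to 4.88 in Sfrp1_KO. The part of these cell types in the values of Ptgs2, Ptgis, Slco2a1 and the other genes named was not tested.

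**Figure D5:**
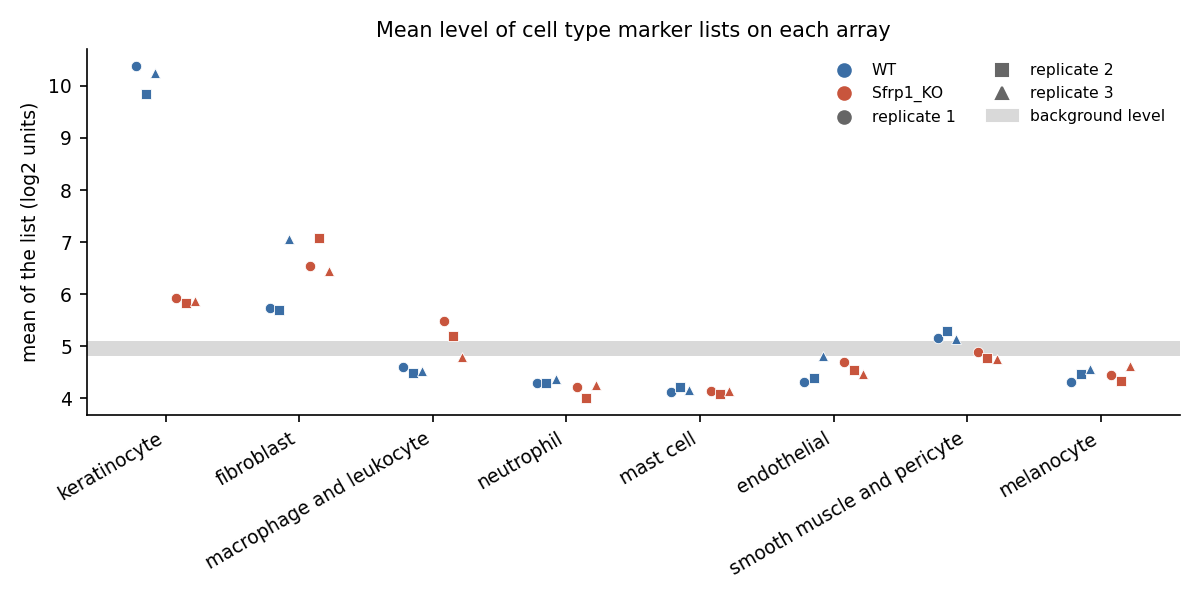
Mean deposited log2 signal (vertical axis, log2 units) of 8 lists of cell type markers on each array, WT and Sfrp1_KO in separate colours, replicates by marker shape, and the background level as a grey band. Keratinocyte markers separate the genotypes most, macrophage markers are higher on all Sfrp1_KO arrays, and mast cell markers stay under the band.

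The genes whose mean-centred values lay nearest to those of Ptgs2 over the 6 arrays, by root mean square distance, were Csrp2, a LIM domain protein gene (distance 0.30), Layn, a hyaluronan receptor gene (0.31), and Rhob, a small GTPase gene (0.33). Their means were 7.57 ± 0.69 and 9.86 ± 0.52, 6.21 ± 0.97 and 8.70 ± 0.43, and 7.53 ± 1.01 and 9.46 ± 0.41 in WT and Sfrp1_KO (SD, n = 3). The nearest to Ptgis were Gsdmd, which encodes gasdermin D (0.030), the interferon-stimulated gene Oas3 (0.036) and Rbbp4, a histone chaperone gene (0.037). The WT means of Gsdmd (4.53 ± 0.05) and Oas3 (4.34 ± 0.04) were, like that of Ptgis, under the background level, and Rbbp4 was at 6.23 ± 0.04 in WT and 6.98 ± 0.19 in Sfrp1_KO (SD, n = 3). Since these genes were chosen for their likeness to Ptgs2 or Ptgis, their genotype differences follow from the choice and are given with no test. The arrays form 2 genotypes, so no correlation over them is given.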

How the data were processed

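The values are log2 signals from RMA as deposited by the authors, who used Affymetrix Expression Console according to the submitters' processing notes; no version, annotation or build is stated in the labels. Each gene was represented by its brightest feature (mean of 6 arrays) among features with 1 platform symbol, updated by gene identifier through RefSeq (GRCm38.p6), giving 30142 genes, dim ones included. The genotype contrast was fitted with limma 3.58.1 (R 4.3.3; lmFit, then eBayes; p-values two-sided and adjusted by Benjamini-Hochberg over all genes; threshold 0.05); the procedure was tested on simulated data. Where all arrays of 1 genotype lay at or under background and all of the other above it, the difference is a bound. Such a bound is taken on the means and leaves out the spread of the arrays. Ptgs2 had an exact permutation test over arrays. Members and lists were chosen with earlier results of these data known. All members are named; of each list, called genes and otherwise the 2 with the smallest p, while any further gene named was picked with its values in view. Alternatives were a replicate block, dim genes left out, the mean of features, quantile normalization, array weights, other variance settings, all features, a minimum difference and each array left out. Of 3 planned comparisons within a step, that of Ptgs2 with Ptgs1 was not run, and those of Ptges with Ptges2 and of Ptger4 with Ptger2 are not given, since genes under background enter them. No 2 arrays held identical values, and their number limits the precision.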

Additional observations from a re-analysis of the deposited data

How the results depend on the processing

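Of the listed genes 1 was called higher as reported, and 2 with dim genes left out, after quantile normalization once more and with array weights, when Ptgs2 joined Ptgis. It was 0 with no moderation of the variances, with a minimum difference of 1 log2 unit and with the replicate number as a block, and 0 to 1 with each array left out. The count called lower was 0 throughout. Of the wider lists 5 were called higher and 3 lower; the counts were 3 and 1 with the replicate block, 1 and 0 with no moderation, and 1 to 4 and 0 to 2 with each array left out, while 1 lower gene met a minimum difference of 1 log2 unit. The cause of these shifts was not tested. The replicate numbers gave correlations of deviations across genes of 0.18, -0.12 and 0.17, and 2 of 6 arrays correlated best with their own number, so the block is given here alone: it gave Ptgs2 an adjusted p of 0.137 and Ptgis 0.0828 (limma). Over all genes it called 535 against 989, and no moderation called 35. With dim genes left out 1089 were called, after quantile normalization once more 1254 and with array weights 1330. Signs turned for Ptges (0.019 after quantile normalization, 0.074 with array weights, -0.13 to 0.13 with each array left out) and Ptger2 (-0.078 to 0.11 with each array left out), neither of which was called under any setting. The other 7 listed genes kept their direction under every setting that gave a value. The 6 genes under background had no value with dim genes left out, nor did Ptgfr and Ltb4r1.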
